A study of Homo sapiens with 10 samples.

Results

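The genes described here are 10 protein-coding genes of the NLR and inflammasome system: the sensors NLRP1, NLRP3, NLRP12 and NLRC4, the adaptor PYCARD, the caspases CASP1 and CASP4, the cytokines IL1B and IL18, and the pore-forming protein GSDMD. They were chosen by symbol and by their annotation as protein-coding, with earlier results of these data known. All 10 were found among the 19975 protein-coding genes and 60603 genes in all that each deposited table lists. NB4, a cell line from acute promyelocytic leukemia, was profiled by mRNA-seq in 2 experiments. In the transduction experiment, cells were infected with lentivirus made from pLKO.1 puro, either without an insert (EV) or with the short hairpin RNA shA1 or shB2 directed at GSE1, and RNA was taken after 48 h. In the MC2580 experiment, cells were exposed for 24 h to the LSD1 inhibitor MC2580 at 2 µM or to DMSO. Each of the 5 conditions had 2 biological replicates, so that 6 libraries belong to the transduction experiment and 4 to the MC2580 experiment. All libraries come from 1 cell line, and how many independent clones or transductions stand behind them was not given.

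Inflammasomes are cytosolic protein assemblies that detect microbial products or cell damage. A sensor of the NLR family can recruit the adaptor ASC, the product of PYCARD, and ASC in turn gathers caspase-1. This protease cuts the precursors of the cytokines encoded by IL1B and IL18. Caspase-1 and caspase-4 also cut gasdermin D, the product of GSDMD, whose freed part opens pores in the plasma membrane. In monocytes and granulocytes these genes belong to the equipment of the mature phagocyte.

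The value used for each gene is its base mean, the authors' average of counts scaled for sequencing depth. It was taken to cover every library of an experiment. For the transduction experiment the column is headed with the authors' label for shB2, and the header does not state which libraries were averaged. If every library is covered, control and treated libraries are averaged together in the base mean. A base mean was therefore read as the level in an experiment and not in EV, shA1, shB2, DMSO or MC2580 cells. No value per library and no error can be given, and no condition was tested against another. Any change of a member under a hairpin or under the inhibitor was therefore not analysed here.

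Summed over all genes, the base means came to 40543130 in the transduction experiment and to 41201112 in the MC2580 experiment. Of the protein-coding genes, 63.1% reached a base mean of 10 in the transduction experiment and 63.0% in the MC2580 experiment. The hairpins' target GSE1 had base means of 2963 and 4441 in the transduction and MC2580 experiments, and KDM1A, which encodes LSD1, had 7648 and 6285. Of 6 promyelocyte markers, 5 were at or above 10 in each experiment and reached the highest level in MPO, the myeloperoxidase gene, while ELANE, the neutrophil elastase gene, stood at 1.10 and 3.87. Of the 3 monocyte markers, 3 and 2 were at or above 10 in the transduction and MC2580 experiments, with a lowest value of 4.62 and a highest of 729 over both. Of the T cell, B cell, erythroid and epithelial markers, 3 of each, the counts at or above 10 were 2, 2, 1 and 2 in the transduction experiment and 1, 2, 0 and 2 in the MC2580 experiment, and the T cell gene CD3D and the epithelial gene EPCAM had base means of 866 and 432 in the former. The defining gene CD3E stood at 1.55 and 2.98, and CDH1 at 0 and 0.859. Their part in the members' levels was not tested.

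Of the 10 members, 9 reached a base mean of 10 in both experiments, and IL18 was the exception. Base means are given first as deposited. They also reflect transcript length, so the percentiles given with them rank read counts and not levels per unit of length. PYCARD (ENSG00000103490, GRCh38 chromosome 16, 31201486 to 31203450, minus strand) had base means of 3344 in the transduction experiment and 4676 in the MC2580 experiment. These read counts were higher than those of 83.9% and 89.0% of the protein-coding genes listed above 0. Its exons share 991 bases with the antisense gene PYCARD-AS1, which had base means of 65.4 and 92.6, and the libraries are of a kind that does not mark strand, so that reads of these genes cannot be told apart where they overlap.

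All 4 sensors were read in both experiments. NLRP3, which responds to ion fluxes and membrane damage (ENSG00000162711, chromosome 1, 247416156 to 247449108, plus strand), had a base mean of 2919 in the transduction experiment and 1753 in the MC2580 experiment, above 81.7% and 73.3% of the protein-coding genes. Its exons share 3139 bases with those of ENSG00000289728, a non-coding gene on the same strand that was not analysed here, so that its value may hold reads of both. NLRP1, a sensor that is activated by proteolysis and restrained by DPP9 (ENSG00000091592, chromosome 17, 5499415 to 5619424, minus strand), had base means of 524 and 456. It lay near the middle of the protein-coding genes, above 52.7% and 51.6% of them, and its exons share 1500 bases with those of ENSG00000286190, a gene on the same strand with base means of 45.3 and 43.98. NLRP12, a sensor known as a brake on inflammatory signaling (ENSG00000142405, chromosome 19, 53793741 to 53824403, minus strand), had base means of 241 and 83.6. NLRC4, which joins NAIP proteins to detect bacterial flagellin and secretion systems (ENSG00000091106, chromosome 2, 32224453 to 32265732, minus strand), had base means of 218 and 90.6. The exons of NLRC4 share 2128 bases with those of ENSG00000289727, a non-coding gene on the opposite strand that was not analysed here, and those of GSDMD share 136 bases with ENSG00000289161 in the same way.

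The caspases were both present. CASP4, which binds bacterial lipopolysaccharide directly (ENSG00000196954, chromosome 11, 104942866 to 104969366, minus strand), had base means of 1303 in the transduction experiment and 1080 in the MC2580 experiment. CASP1, the protease of the canonical inflammasome (ENSG00000137752, chromosome 11, 105025397 to 105035250, minus strand), had base means of 667 and 412. Its neighbour CARD16 is a near-copy of the start of CASP1, and how reads that fit both were divided could shift either value. CARD16 had base means of 111 and 77.8. GSDMD (ENSG00000104518, chromosome 8, 143553207 to 143563062, plus strand) had base means of 438 and 529, above 50.7% and 53.5% of the protein-coding genes.

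Of the cytokines, IL1B passed the minimum and IL18 did not. IL1B (ENSG00000125538, chromosome 2, 112829751 to 112836816, minus strand) had base means of 113 in the transduction experiment and 50.02 in the MC2580 experiment, above 40.0% and 35.2% of the protein-coding genes. IL18 (ENSG00000150782, chromosome 11, 112143253 to 112164096, minus strand) had base means of 4.78 and 4.26, above 23.1% and 21.6% of them. Both IL18 values lay under the minimum of 10 used here, and no order between the experiments was read from them. Together the members made up 0.0241% of the summed base means in the transduction experiment and 0.0222% in the MC2580 experiment.

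Longer transcripts give more reads, so for comparisons between genes base means were divided by the length of the canonical transcript in GENCODE release 44. The length ranged from 0.757 kb for PYCARD to 5.61 kb for NLRP1. Per kilobase of this transcript, the order in the transduction experiment was PYCARD, CASP4, NLRP3, CASP1, GSDMD, NLRP1, IL1B, NLRP12, NLRC4 and IL18. PYCARD had 4418 per kb in the transduction experiment and 6177 per kb in the MC2580 experiment, above 96.1% and 97.0% of the protein-coding genes on the same scale. CASP4 followed with 1006 and 833 per kb and NLRP3 with 697 and 419 per kb. On this scale NLRP3 lay above 77.1% and 69.8% of the protein-coding genes and GSDMD above 60.5% and 64.7%. NLRP1 lay above 47.7% and 46.7% of them, and IL1B above 45.4% and 39.3%.

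Per kilobase, PYCARD stood above each of its partners, by a factor that depends on the length used. PYCARD exceeded NLRP3 by 6.34-fold per kb in the transduction experiment and by 14.8-fold in the MC2580 experiment. With the length of all annotated exons, chosen after seeing the data, these became 3.28-fold and 7.64-fold. PYCARD also exceeded CASP1, at 334 and 206 per kb, by 13.2-fold and 29.9-fold. Between the caspases, CASP4 exceeded CASP1 by 3.01-fold and 4.04-fold per kb, but by 1.16-fold and 1.56-fold with all exons. Among the sensors, NLRP3 exceeded NLRP1 by 7.47-fold and 5.15-fold per kb, and by 23.6-fold and 16.3-fold with all exons. It exceeded NLRP12 by 10.5-fold and 18.2-fold. CASP4 lay 1.44-fold and 1.99-fold above NLRP3 per kb of canonical transcript, whereas with all exons NLRP3 lay 3.14-fold and 2.28-fold above CASP4. IL1B had 75.2 and 33.2 per kb, and no fold was taken against IL18, which is under the minimum.

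Some neighbours in this order were close. In the transduction experiment NLRP12 was 1.02-fold above NLRC4 per kb, IL1B 1.13-fold above NLRP12 and NLRP1 1.24-fold above IL1B. With no spread over libraries, it cannot be said whether neighbours as close as these differ. With all exons the order of these 4 in that experiment was turned round, to NLRC4, NLRP12, IL1B and NLRP1.

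The members were then compared between the experiments as shares of the summed base means. The tables were normalized separately by the authors, and the experiments differ in transduction, in time and in the treatments averaged into them, which cannot be told apart, so this ratio compares 2 experiments and no condition. The share of PYCARD in the MC2580 experiment was 1.38 times its share in the transduction experiment, and that of GSDMD 1.19 times. For 58.6% of the 10916 protein-coding genes that reached a base mean of 50 in both experiments, the share was lower in the MC2580 experiment. The same held for 7 of the 9 members past this minimum. The ratios were 0.341 for NLRP12, 0.409 for NLRC4 and 0.435 for IL1B, followed by 0.591 for NLRP3, 0.608 for CASP1, 0.815 for CASP4 and 0.856 for NLRP1. IL18 had 0.877, from which no direction was read.

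Over the 10916 protein-coding genes that reached a base mean of 50 in both experiments, the median of this ratio was 0.938, the middle 50% of the genes lay between 0.765 and 1.14, and 58.6% of the genes had a ratio under 1. IL18 did not reach that minimum, and IL1B passed it narrowly at 50.02. Of the 9 members that reached it, NLRP12, NLRC4 and IL1B had a ratio under 0.5, against 3.54% of the 10916 genes. These members also had the lowest base means of the 9 in both experiments. The 10916 genes were not matched to them in level, so their share and the percentages below do not refer to genes of like level. A ratio over 2 was found in 0 of the 9 members and in 0.66% of all genes. The ratio of NLRP12 was lower than those of all but 0.669% of the genes, that of NLRC4 than those of all but 1.45% and that of IL1B than those of all but 1.89%. PYCARD lay at the other end, above 90.4% of the genes. CASP4 and NLRP1 were within the middle 50%.

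Beyond the members, 46 other genes of the pathway were examined (further NLR proteins, other gasdermins, inhibitors, receptors and regulators). Of these, 33 reached a base mean of 10 in each experiment. The 5 with the highest base mean in the transduction experiment were HSP90AB1, CARD8, TXNIP, NLRC5 and DPP9. HSP90AB1, a chaperone that keeps NLR proteins ready to act, had base means of 124646 and 115122. CARD8, a sensor related in mechanism to NLRP1, had 10383 and 9009, and DPP9, the protease that restrains both, had 4501 and 4157. TXNIP, a thioredoxin-binding protein that has been tied to NLRP3, had 7877 and 6269, and NLRC5, a transactivator of major histocompatibility complex class I genes, had 4785 and 4504. NLRP2, NLRP4, NLRP10, CARD17, GSDMA and GSDMC were listed at 0 in both tables.

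The same ratio of shares was under 1 for 23 of the 26 pathway genes that reached a base mean of 50 in both, with a median of 0.789, against 58.6% of the 10916 protein-coding genes and a median of 0.938. It was under 0.5 for 3 of the 26, against 3.54% of the 10916 genes: CASP8, NOD2 and IFI16, named here after their values were seen. NOD2, a sensor of bacterial cell wall fragments, had base means of 459 in the transduction experiment and 188 in the MC2580 experiment. CASP8, the initiator caspase of death receptors, had 3567 and 1742, and IFI16, a sensor of DNA, had 3698 and 1849. These values were taken to average control and treated libraries. They set the experiments side by side and do not measure an effect of MC2580 or of a hairpin on these genes.

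RefSeq promoter sequences were available here for PYCARD, NLRP3, NLRP12, NLRC4, CASP4 and IL1B, and were not used for NLRP1, CASP1, IL18 and GSDMD. These 6 members have 8 windows of 250 bases before a RefSeq start (GRCh38.p14), and the window whose start lies nearest to the GENCODE start was taken. The RefSeq and GENCODE starts differ, by 11 bases for NLRC4, 17 for NLRP3, 37 for IL1B, 89 for NLRP12, 690 for PYCARD and 792 for CASP4. The windows of PYCARD and CASP4 therefore lie wholly inside the GENCODE gene. The sequences of NLRP12, NLRC4 and IL1B, the 3 members with the lowest ratio of shares, are shown as far as they lie before the GENCODE gene. They read 5′ to 3′ on the strand of the gene, which is the minus strand for all 3. Capitals mark GAGGAA or its reverse complement TTCCTC, a purine-rich string of the kind that ETS factors such as PU.1 recognise. This string was chosen after the sequences had been seen. The shorter GGAA or TTCC also occurs outside the capitals in all 3 stretches and was neither marked nor counted. The stretches are chr19:53824404-53824564 for NLRP12, chr2:32265744-32265993 for NLRC4 and chr2:112836817-112837029 for IL1B.
NLRP12: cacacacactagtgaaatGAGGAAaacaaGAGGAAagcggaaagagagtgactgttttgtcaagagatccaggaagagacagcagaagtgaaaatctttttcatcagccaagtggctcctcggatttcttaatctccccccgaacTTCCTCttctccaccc
NLRC4: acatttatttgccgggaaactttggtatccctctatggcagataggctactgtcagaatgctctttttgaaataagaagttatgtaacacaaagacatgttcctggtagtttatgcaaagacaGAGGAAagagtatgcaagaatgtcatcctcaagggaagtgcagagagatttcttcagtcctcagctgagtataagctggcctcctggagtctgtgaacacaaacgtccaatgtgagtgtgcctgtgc
IL1B: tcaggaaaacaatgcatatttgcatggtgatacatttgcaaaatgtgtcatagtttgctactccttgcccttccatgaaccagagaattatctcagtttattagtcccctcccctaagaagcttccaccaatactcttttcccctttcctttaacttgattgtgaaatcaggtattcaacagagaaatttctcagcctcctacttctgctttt

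Counts of letters were taken over the whole windows of 250 bases. The PYCARD window is rich in G and C (71.2%) and holds 16 CG dinucleotides, against a median of 11 over 35116 RefSeq windows of the same length. The windows of the other 5 members hold fewer than this median: 3 in NLRP12 and NLRP3, 2 in NLRC4 and CASP4 and 1 in IL1B. GAGGAA, counted on both strands, occurs 4 times in the NLRP12 window, 3 of them in the stretch shown. It occurs 1 time each in those of PYCARD, NLRP3 and NLRC4, and 0 times in those of CASP4 and IL1B. At least 1 match is found in 23.6% of all windows and 4 or more in 0.0513%. Because the string was chosen after the sequences had been seen, these percentages do not measure how unusual the NLRP12 window is. These matches are a description of letters and do not show binding.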

How the data were processed

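Total RNA of NB4 cells was turned into TruSeq mRNA libraries, and per the labels the authors used STAR 2.7 on hg38, RSEM and DESeq2. The only signal column of the deposited tables that was used is the base mean, taken to average the scaled counts of all libraries of an experiment. The other numeric columns hold the authors' own comparisons (log2 fold changes, standard errors, statistics and p-values for each hairpin against EV and for MC2580 against DMSO) and were not used, so no condition was tested. The lowest base means did not fall on shared steps of 1 read (6215 distinct values among 6842 under 0.5 in the transduction experiment), so the depth of the libraries is unknown and no interval was computed.

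Members were matched by symbol and biotype. The members and gene lists were chosen with earlier results of these data known. Named pathway genes were the 5 with the highest base mean in the transduction experiment and those at 0 in both tables. CASP8, NOD2, IFI16 and CARD16 were named outside this rule, after their values were seen. Percentiles refer to protein-coding genes listed above 0. Shares are base means divided by the sum over all genes, and ratios are described for genes that reached a base mean of 50 in both tables. Of 60603 identifiers, 60306 matched GENCODE release 44, which gave positions and canonical transcript lengths; the annotation used by the authors is not given in the sources used here. Promoter windows came from RefSeq on GRCh38.p14. Calculations used Python 3.11.15, pandas 2.3.3 and numpy 2.4.6. The ratio calculation was tested on the base means of the transduction experiment with known folds planted, after division by the median ratio. No noise was added in this test. The percentile calculation was checked at the median and at the lowest of these base means.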

Additional observations from a re-analysis of the deposited data

How the results depend on the processing

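The median ratio of shares of the 9 members that reached a base mean of 50 in both experiments was 0.608 when scaled by the sum over all genes, 0.610 by the sum over protein-coding genes and 0.648 by the median ratio of genes. Under each of these scalings the ratio was under 1 for 7 of the 9 and under 0.5 for 3. Each scaling multiplies the ratios of all genes by the same factor and leaves their order unchanged. These factors were too small to move a member across 1 or 0.5, so the unchanged counts are no independent check. The count of members at or above the minimum base mean was 9 with a minimum of 10 or 50 and 10 with a minimum of 1 or none, in both experiments, and for the 46 pathway genes it ranged from 26 to 39. Per kilobase of canonical transcript, 7 of the 10 members changed their rank in each experiment. Per kilobase of all annotated exons, a length chosen after seeing the data, 4 did in the transduction experiment and 3 in the MC2580 experiment. The fold of CASP4 over NLRP3, 1.44 and 1.99 per kilobase of canonical transcript in the transduction and MC2580 experiments, turned to 0.318 and 0.439 with all exons. PYCARD stayed first and IL18 last under each of these lengths. Percentiles were higher by 5.11 to 26.7 points against genes of every biotype and lower by 3.93 to 23.2 points against protein-coding genes that reached a base mean of 10. No paired analysis was possible because the values are averages over libraries of an experiment and carry no replicate. The depth of the libraries is unknown, and values as low as those of IL18 carry little precision.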
